A study of Mus musculus with 8 samples.

Results

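Corneal crystallins are ordinary metabolic enzymes that corneal cells store at very high concentration. The genes described here are Aldh3a1, Aldh1a1 and Aldh1a3 (aldehyde dehydrogenases), Tkt (transketolase) and Gsto1 (an omega-class glutathione transferase). Every probe set that the platform annotation assigns to only 1 of these 5 symbols was taken, which gave 10 of 45037 non-control probe sets, or 5 of 18193 genes. Aldh3a1 and Aldh1a1 had 1 probe set each, Gsto1 had 2, and Aldh1a3 and Tkt had 3 each. The rule uses no measured value, though the symbols were picked with earlier results of these data known.

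The study hybridised total RNA of mouse corneas to 8 one-colour Affymetrix arrays. Of these, 4 came from mice with overexpression of TGF-beta (called TGFB here) and 4 from wildtype litter mates. Strain, age, TGF-beta isoform, promoter and pooling are not stated in the labels, nor is it stated that each array holds a separate animal. A p-value therefore reflects the spread among these 8 arrays alone, and that spread could be technical. In whole corneas, fewer cells of a type and less RNA per cell cannot be told apart.

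In the mouse, ALDH3A1 and transketolase are among the most abundant soluble proteins of the corneal epithelium. ALDH3A1 oxidises aldehydes formed when ultraviolet light damages lipids, and it absorbs ultraviolet light itself. ALDH1A1 and ALDH1A3 oxidise retinaldehyde to retinoic acid, and in rabbit corneas ALDH1A1 is an abundant protein of resting keratocytes. Transketolase links the pentose phosphate pathway, which supplies NADPH, to glycolysis. GSTO1 reduces dehydroascorbate and removes glutathione from modified proteins.

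The starts of the genes differ in composition. The 250 bases before each annotated start, from the RefSeq promoter table of build GRCm38.p6, were found for 3 of the 5 genes. All windows found are shown, and none was found for Aldh3a1 or Aldh1a3. They were not picked by the direction of a gene in TGFB corneas. Each is printed 5′ to 3′ on the plus strand, and Aldh1a1 has 2 annotated starts. Capitals mark GGGCGG, the GC box, or its reverse complement in Tkt and Gsto1, and TGACTCA, the AP-1 site, in Aldh1a1.
Tkt, chr14:30548881-30549130: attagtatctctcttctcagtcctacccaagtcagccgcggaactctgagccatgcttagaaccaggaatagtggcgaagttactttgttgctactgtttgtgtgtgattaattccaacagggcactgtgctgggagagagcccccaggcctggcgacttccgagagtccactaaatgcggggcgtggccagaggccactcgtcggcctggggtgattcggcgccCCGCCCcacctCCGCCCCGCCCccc
Aldh1a1, upstream start, chr19:20492333-20492582: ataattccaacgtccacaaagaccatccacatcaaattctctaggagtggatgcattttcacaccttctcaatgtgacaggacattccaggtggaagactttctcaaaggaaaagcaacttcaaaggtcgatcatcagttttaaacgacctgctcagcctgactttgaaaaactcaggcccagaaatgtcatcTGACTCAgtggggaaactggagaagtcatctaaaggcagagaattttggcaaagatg
Aldh1a1, downstream start, chr19:20601718-20601967: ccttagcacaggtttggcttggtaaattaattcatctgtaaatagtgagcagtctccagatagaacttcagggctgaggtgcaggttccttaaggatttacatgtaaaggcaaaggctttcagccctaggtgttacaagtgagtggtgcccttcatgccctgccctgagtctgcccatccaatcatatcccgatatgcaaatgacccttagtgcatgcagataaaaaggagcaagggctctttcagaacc
Gsto1, chr19:47854723-47854972: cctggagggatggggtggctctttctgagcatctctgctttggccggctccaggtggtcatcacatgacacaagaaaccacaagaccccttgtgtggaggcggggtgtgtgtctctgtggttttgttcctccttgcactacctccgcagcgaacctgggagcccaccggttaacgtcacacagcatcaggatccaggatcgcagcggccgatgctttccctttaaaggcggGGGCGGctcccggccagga

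The Tkt and Gsto1 windows were 59.6% and 60.0% G or C, and the Aldh1a1 windows 42.8% and 46.4%, against a median of 52.4% over all 32851 windows. Tkt held 3 GC boxes, of which the last 2 share a base, and Gsto1 held 1. A GC box was found in 32.7% of all windows and an AP-1 site in 4.46%. Further letters searched on both strands were those of the antioxidant response element core (TGACNNNGC, in 10.2% of all windows), of the TATA box (TATAAA, in 12.4%), of the nuclear receptor core (AGGTCA, in 14.0%) and of the palindromic SMAD element (GTCTAGAC, in 0.167%). None of them is in these 4 windows.

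The comparison of TGFB with wildtype arrays asks whether these enzymes differ between the groups. None of the 10 probe sets passed. Aldh3a1, Aldh1a1 and the brighter pair of Tkt probe sets had lower means in TGFB corneas, Aldh1a3 was high on only TGFB 3 and TGFB 4, and Gsto1 overlapped widely. Values were compared as log2(signal + 16), and a difference is TGFB minus wildtype with limma's moderated standard error (SE). A result passed where limma's Benjamini-Hochberg adjusted p over all 45037 probe sets lay under 0.05. No probe set of the whole table passed in either direction (0%), with adjusted p of at least 0.822 throughout. Before adjustment, 3 of the 10 members were lower and 0 higher at a p under 0.05, where 3.16% of all probe sets were lower and 2.70% higher. Of those 3, 2 belong to Tkt and are not independent. The groups did not overlap for 1 of the 10, lower in TGFB, against 1.81% of all probe sets lower and 1.47% higher. The median difference was 0.03 over the 10 members and 0.01 over all probe sets.

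**Figure D1:**
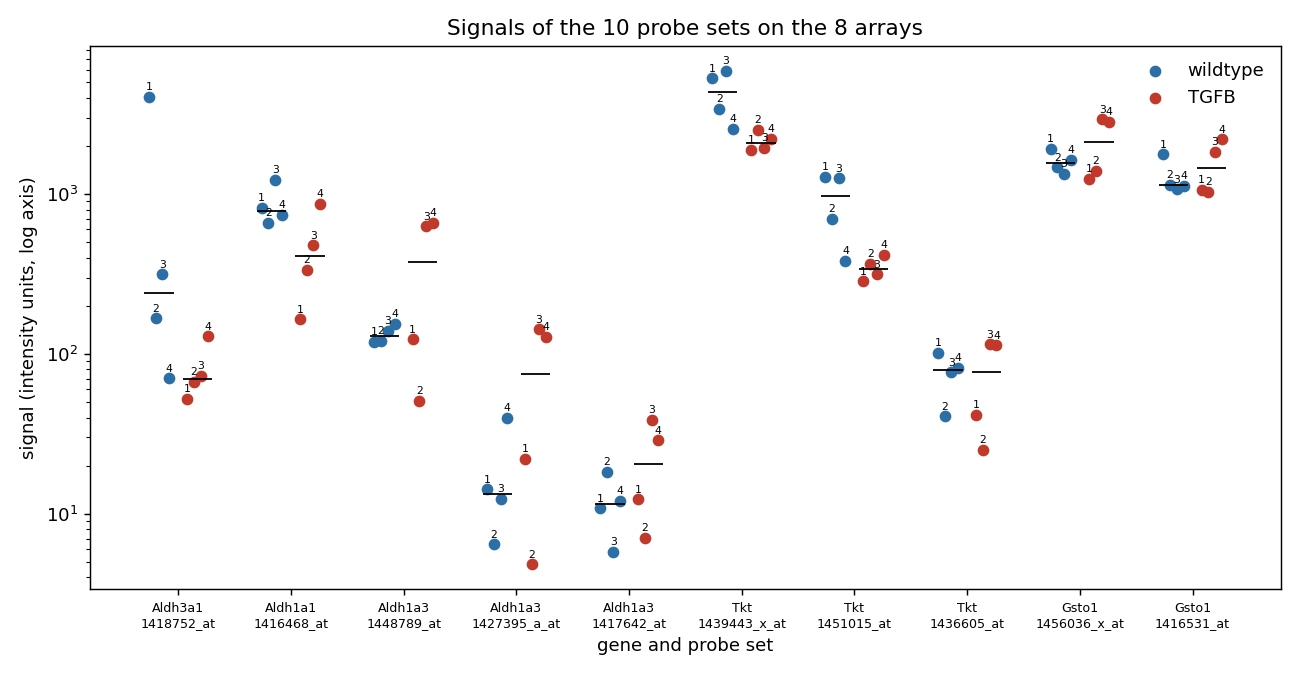
Signals (intensity units, log axis) of the 10 probe sets on the 4 wildtype (blue) and 4 TGFB (red) arrays, with array numbers beside the points and group medians as black bars. Aldh3a1 reaches 4060.1 on wildtype 1 alone, the brightest Tkt probe set separates the groups, and Aldh1a3 is high on TGFB 3 and TGFB 4.

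Markers of several tissues differed widely between arrays. The skin keratin gene Krt10 reached 11198 on TGFB 1, 10154.5 on TGFB 2 and 8494 on wildtype 2, against 139.8 to 409 on the others. Krt12, the keratin of differentiated corneal epithelium, lay between 3008 and 5766 except on TGFB 1 (289) and wildtype 4 (562). The 11 corneal epithelium markers as a list varied less. Their summed signals were 23470 to 28190 on TGFB and 17580 to 30330 on wildtype arrays, lowest on wildtype 4. On TGFB 1 the sum held Krt5, Krt15 and Krt14 signals of 6103, 5659 and 4872, beside 289 for Krt12. An even sum therefore does not show an even amount of corneal epithelium. The Gapdh 3′ to 5′ signal ratio, which grows with RNA decay, was 6.41 on wildtype 4 and 2.19 to 4.31 elsewhere. Acta1, an actin of skeletal muscle, had signals of 5613 to 8340.2 on the 8 arrays. Other muscle markers were less even. Myh1 had 3936 on wildtype 1 against 25.5 to 335 elsewhere, and Pvalb had 699 against 18.9 to 75.5. Myh4 and Actn3 were also highest on wildtype 1, while Ckm, Tnnt3 and Tnni2 were not. All 8 arrays had a 2% trimmed mean signal of 150.

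Aldh3a1, the best known mouse corneal crystallin, was bright on 1 array of the 8. Its signals were 4060.1, 167, 315 and 70.5 on wildtype 1 to 4 and 52.5, 66.7, 72.8 and 128 on TGFB 1 to 4. Wildtype 1 stood far above the rest, wildtype 2 and wildtype 3 were above every TGFB array, and wildtype 4 lay among the TGFB arrays. The mean log2 value was 8.58 ± 2.41 in wildtype and 6.53 ± 0.46 in TGFB corneas (SD, n = 4 each). The difference was -2.05 (SE 1.00, 95% interval -4.30 to 0.20, limma adjusted p = 0.867). An exact two-sided permutation test over the 70 assignments of arrays gave p = 0.0857. Without wildtype 1 the difference was -0.91 (SE 0.44), and without wildtype 4 it was -2.76 (SE 0.93, limma adjusted p = 0.334).

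Krt12 and Aldh3a1 were both lowest on TGFB 1, low on wildtype 4 and highest on wildtype 1 and wildtype 3. TGFB 2, TGFB 3 and TGFB 4 had Krt12 signals of 3467, 4161 and 4551, inside the 3008 to 5766 of wildtype 1 to 3, while their Aldh3a1 signals lay below those of all 3. Pax6, a transcription factor of corneal epithelium, lens and retina, had signals of 799, 663, 1068 and 206 on wildtype 1 to 4 and 127, 91.6, 590.4 and 746 on TGFB 1 to 4. It was lowest on TGFB 1, TGFB 2 and wildtype 4, which also had low Aldh3a1. TGFB 3 and TGFB 4, with higher Pax6, had low Aldh3a1 too, at 72.8 and 128. Wildtype 1 was further marked by neighbouring tissue. The 7 measured of 8 retina markers summed to 4533 there. They summed to 105 to 795 on the other wildtype arrays and to 83.6 to 259.6 on TGFB arrays. The muscle markers Myh1, Myh4, Actn3 and Pvalb were also highest on wildtype 1, while Acta1, Ckm, Tnnt3 and Tnni2 were not. The part of these tissues in the Aldh3a1 result was not tested.

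Tkt had lower signals on every TGFB array than on every wildtype array for its brightest probe set, and this did not pass the test. That probe set, 1439443_x_at, had signals of 5287, 3426, 5914 and 2554 on wildtype 1 to 4 and 1889.9, 2532, 1949 and 2214 on TGFB 1 to 4. Wildtype 1 and wildtype 3 were highest, and wildtype 4 exceeded TGFB 2 by little. The log2 means were 12.00 ± 0.56 and 11.07 ± 0.19 (SD, n = 4 each), a difference of -0.93 (SE 0.26, 95% interval -1.52 to -0.33), or 1.90-fold higher in wildtype. It did not pass (limma adjusted p = 0.834, unadjusted p = 0.00625). The exact two-sided permutation p was 0.0286 before any adjustment, the smallest that 4 against 4 arrays allow.

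The second Tkt probe set, 1451015_at, followed the first closely, with r = 0.98 over the 8 arrays. Its signals were 1283, 702, 1252 and 383 on wildtype 1 to 4 and 285, 367, 314 and 417 on TGFB 1 to 4. Wildtype 4 lay among the TGFB arrays and the other wildtype arrays lay above them. The difference was -1.21 (SE 0.36, limma adjusted p = 0.834), with an exact permutation p of 0.0571. Without wildtype 4 the differences of the 2 probe sets were -1.15 (SE 0.21, limma adjusted p = 0.172) and -1.56 (SE 0.24, limma adjusted p = 0.135).

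The dimmest Tkt probe set, 1436605_at, did not follow them, with r = 0.12 and 0.21. Its signals ran from 40.8 to 101 on wildtype and from 25.0 to 115 on TGFB arrays, and the difference was -0.15 (SE 0.40, limma adjusted p = 0.978). The sign of that value turned under 5 of 18 alternatives. Pigmented tissue markers were highest on the arrays where the brighter pair of Tkt probe sets was highest. The pigment cell and iris markers summed to 32190 and 25660 on wildtype 1 and wildtype 3, the arrays highest in Tkt, to 14570 and 15030 on the other wildtype arrays and to 3214 to 14880 on TGFB arrays. The lens markers did not follow Tkt on all arrays. They summed to 13900, 331, 44310 and 1328 on wildtype 1 to 4. On TGFB 1 to 4 they summed to 154, 149, 6028 and 30300, and Tkt was not high on TGFB 4. The part of these tissues in the Tkt result was not tested. The brightest probe set is of the x type, whose probes may also bind other transcripts.

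**Figure D2:**
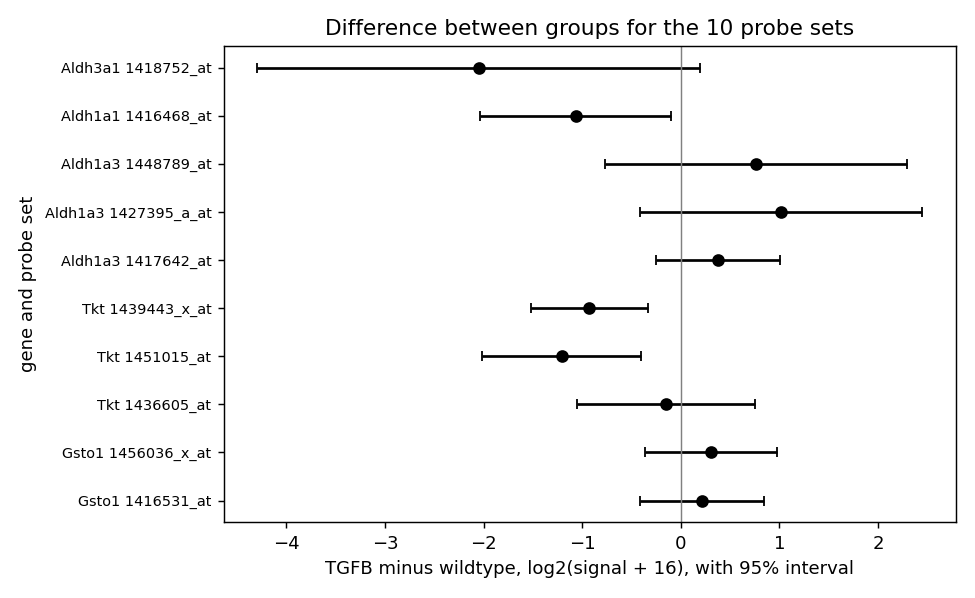
Difference between the groups (TGFB minus wildtype, log2(signal + 16)) for the 10 probe sets, with 95% intervals from limma. The intervals of Aldh1a1 and of the Tkt probe sets 1439443_x_at and 1451015_at lie below 0 before adjustment, and the widest is that of Aldh3a1.

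Aldh1a1, which makes retinoic acid, had a lower mean in TGFB corneas with overlap of the groups. Its signals were 820, 663, 1232 and 739 on wildtype 1 to 4 and 165, 337, 477 and 869 on TGFB 1 to 4. The first 3 TGFB arrays lay below every wildtype array, while TGFB 4 exceeded all but wildtype 3. The log2 means were 9.74 ± 0.38 and 8.67 ± 0.96 (SD, n = 4 each), and the difference was -1.07 (SE 0.43, 95% interval -2.04 to -0.10). It did not pass (limma adjusted p = 0.837, exact permutation p = 0.114). Without TGFB 1 the difference was -0.67 (SE 0.34), and without TGFB 4 it was -1.44 (SE 0.35, limma adjusted p = 0.935).

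Pigment and lens marker sums each followed Aldh1a1 on part of the arrays. Wildtype 1 had the highest pigment sum, while its Aldh1a1 signal of 820 lay below the 869 of TGFB 4. The summed signal of all 8 measured pigment cell and iris markers was 3214 and 6487 on TGFB 1 and TGFB 2, where Aldh1a1 was lowest, 14640 and 14880 on TGFB 3 and TGFB 4, and 14570 to 32190 on wildtype arrays. Tyrp1, a melanosome enzyme, had signals of 415, 1062, 2173 and 2107 on TGFB 1 to 4 and 7073, 2760.3, 4856 and 2473 on wildtype 1 to 4. Its groups did not overlap. The summed signal of the 10 keratocyte markers was 36920 to 43010 on TGFB and 40250 to 67380 on wildtype arrays, with the highest sum on wildtype 4. Kera, a keratocyte proteoglycan gene, had signals of 2073 to 4154 on TGFB and 2538 to 8110.1 on wildtype arrays. The 13 measured of 14 lens markers summed to 154, 149, 6028 and 30300 on TGFB 1 to 4. On wildtype 1 to 4 they summed to 13900, 331, 44310 and 1328, which ordered the wildtype arrays as Aldh1a1 did. On TGFB arrays both were highest on TGFB 4, then on TGFB 3. Across the groups the lens sum was lower on wildtype 2 than on TGFB 3, while Aldh1a1 was higher. Cryaa, a lens crystallin, ran from 3.84 on TGFB 1 to 3228 on wildtype 3. Without the 3 arrays of high Krt10, chosen after the data were seen, the Aldh1a1 difference was -0.48 (SE 0.35). The part of these tissues in the Aldh1a1 result was not tested.

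Aldh1a3, the other retinoic acid enzyme among the members, split the TGFB arrays. Its brightest probe set, 1448789_at, had signals of 123, 50.9, 627 and 658 on TGFB 1 to 4 and 119, 121, 139 and 154 on wildtype 1 to 4. TGFB 3 and TGFB 4 lay above every wildtype array, TGFB 1 lay among them and TGFB 2 below them. The log2 means were 7.98 ± 1.66 in TGFB and 7.21 ± 0.16 in wildtype corneas (SD, n = 4 each). The difference was 0.76 (SE 0.68, 95% interval -0.77 to 2.30, limma adjusted p = 0.920, exact permutation p = 0.371). Leaving out TGFB 3 or TGFB 4 gave 0.31 (SE 0.66) and 0.29 (SE 0.65), and leaving out TGFB 2 gave 1.40 (SE 0.51).

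Both dimmer Aldh1a3 probe sets showed the same split. Probe set 1427395_a_at had signals of 143 and 128 on TGFB 3 and TGFB 4, against 4.82 to 39.7 on the other 6 arrays, and a difference of 1.02 (SE 0.63). Probe set 1417642_at had 38.6 and 28.8 there against 5.76 to 18.2, and a difference of 0.38 (SE 0.28). Pairs of the 3 probe sets correlated with r between 0.85 and 0.95 over the 8 arrays, which share their scaling.

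TGFB 3 and TGFB 4 were the TGFB arrays with low cornified skin transcripts. The summed signal of the 7 cornified epidermis markers was 1083 and 1049 on these arrays and 38190 and 45220 on TGFB 1 and TGFB 2. Wildtype 1, wildtype 3 and wildtype 4 had sums as low, 712 to 1551, with Aldh1a3 signals of 119 to 154. In the setting that leaves out the 3 arrays of high Krt10, added after the data were seen, TGFB 3 and TGFB 4 were set against these 3 wildtype arrays. The difference of the brightest Aldh1a3 probe set was then 2.11, and those of the other probe sets were 2.06 and 0.96. These describe 5 arrays and are no test, since the setting leaves out the TGFB arrays on which Aldh1a3 was low.

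Gsto1 was bright on all arrays and its groups overlapped. Probe set 1456036_x_at had signals of 1250.4, 1398, 2934 and 2827 on TGFB 1 to 4 and 1917, 1469, 1335 and 1640.3 on wildtype 1 to 4. TGFB 3 and TGFB 4 were again highest, and TGFB 1 lay just below the wildtype range and TGFB 2 in its lower part. The difference was 0.31 (SE 0.30, 95% interval -0.36 to 0.98, limma adjusted p = 0.926, exact permutation p = 0.40). Without TGFB 3 it was 0.11 (SE 0.29), without TGFB 4 it was 0.13 (SE 0.30), and without TGFB 1 it was 0.52 (SE 0.28).

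The other Gsto1 probe set, 1416531_at, gave 1067, 1032, 1830.1 and 2198 on TGFB 1 to 4 and 1772, 1138, 1068 and 1129.8 on wildtype 1 to 4. Both probe sets agreed on which arrays were high (r = 0.93), except that wildtype 1 came close to TGFB 3 on the second. Its difference was 0.21 (SE 0.28, 95% interval -0.42 to 0.85, limma adjusted p = 0.943). It was 0.10 without TGFB 3, 0.02 without TGFB 4 and 0.38 without wildtype 1. Equality of the groups was not shown by either interval. Without the 3 arrays of high Krt10 the differences were 0.83 and 0.63, again as a description of 5 arrays.

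**Figure D3:**
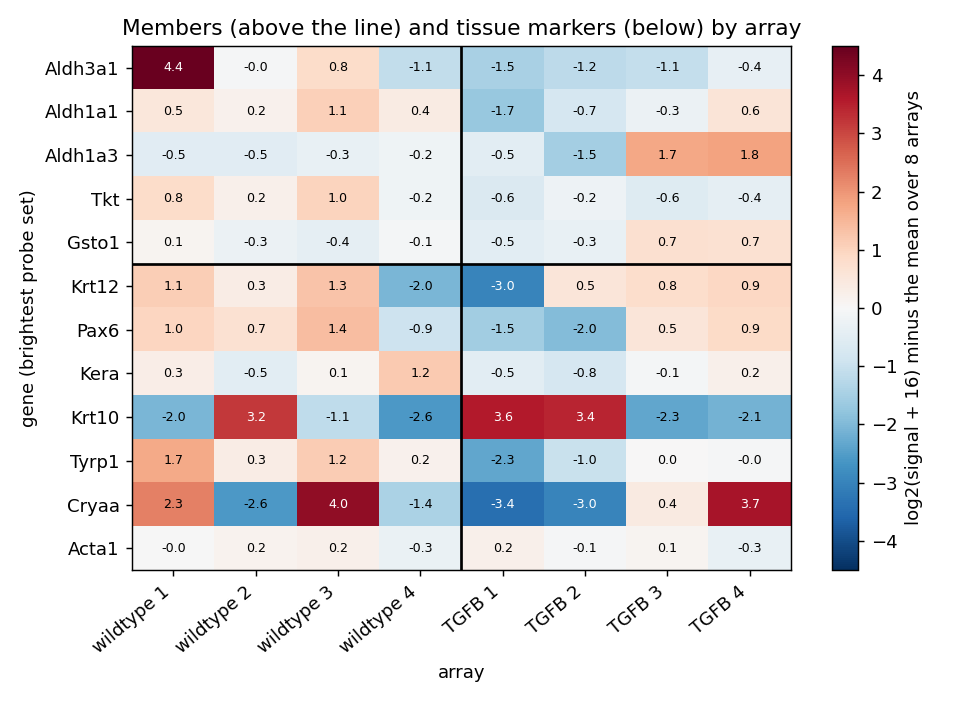
Each cell gives log2(signal + 16) minus the mean over the 8 arrays for the brightest probe set of a gene, with members above the horizontal line, tissue markers below it and the 4 wildtype arrays to the left. Aldh3a1 and Tkt are highest on wildtype 1 and wildtype 3, Aldh1a3 and Gsto1 on TGFB 3 and TGFB 4, and Krt10 on TGFB 1, TGFB 2 and wildtype 2.

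The 5 genes fell into different patterns across arrays. Of 10 pairs of brightest probe sets, none had a correlation past an adjusted p under 0.05 (exact permutation, adjusted over the 10 pairs). Aldh3a1 and Tkt had r = 0.79 (p = 0.0117, adjusted p = 0.0777) and rho = 0.79 (p = 0.0279, adjusted p = 0.140, exact permutation). Without wildtype 1 and wildtype 3, the arrays farthest from the Aldh3a1 median, r was 0.68. Aldh1a1 and Tkt had r = 0.68 (p = 0.0601, adjusted p = 0.201) and rho = 0.69 (p = 0.0694, adjusted p = 0.231), again by exact permutation, and r = 0.71 without TGFB 1 and TGFB 2. Aldh3a1 and Aldh1a1 had r = 0.51 (p = 0.196, adjusted p = 0.490) but rho = 0.79 (p = 0.0279, adjusted p = 0.140, exact permutation), with r = 0.71 without wildtype 1 and wildtype 3.

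Aldh1a3 and Gsto1 shared only their high arrays. Their r was 0.89 (p = 0.0155, adjusted p = 0.0777) with rho = 0.50 (p = 0.216, adjusted p = 0.541, exact permutation), and r was 0.18 without TGFB 3 and TGFB 4. That relation rests on those arrays. Groups of 4 arrays are too small for a correlation within a group. Differences between the groups enter all these values.

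For each member, the genes of most similar pattern over the 8 arrays were sought among 8794 genes with a mean signal of at least 100, as a description only. For Aldh3a1 they were Ddrgk1, a factor of protein ufmylation (r = 0.99), the endoplasmic reticulum co-chaperone Dnajc3 (r = 0.97) and the membrane fusion protein Stx18 (r = 0.97). All 3 were highest on wildtype 1, where Ddrgk1 had a signal of 953 against 557 to 664 elsewhere. For Tkt they were Yipf1 (r = 0.98), Lancl2 (r = 0.98) and the replication protein Rpa1 (r = 0.97), whose signals were 2829 and 2990.0 on wildtype 1 and wildtype 3 and 1477 to 2006 elsewhere.

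For Aldh1a1 the most similar genes were the mitochondrial protease Clpp (r = 0.97), the photoreceptor cilium gene Rpgrip1 (r = 0.96) and the melanosome gene Pmel (r = 0.95). Pmel had signals of 1088 and 2089 on TGFB 1 and TGFB 2 and 5009 to 7151 on the other 6 arrays. For Aldh1a3 they were Plekha1 (r = 0.97), the lipid transfer protein Osbpl8 (r = 0.97) and the ubiquitin ligase Kcmf1 (r = 0.96). For Gsto1 they were the transcriptional repressor Bhlhe40 (r = 0.98), the major vault protein Mvp (r = 0.97) and Coq10b (r = 0.96). Bhlhe40 had signals of 480.4 and 539.6 on TGFB 3 and TGFB 4 and 159 to 307 on the other 6 arrays.

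The other genes of the members' pathways were read at the brightest probe set of each gene. Of 85 genes in 6 lists, 76 were measured and the remaining genes were not analysed here. None passed in either direction, as for all 18193 genes (0%). At an unadjusted p under 0.05, 10 of the 76 were lower (13.2%, against 4.54% of all genes) and 3 higher (3.95%, against 2.69%). The groups did not overlap for 6 lower and 3 higher genes, where 2.45% and 1.49% of all genes did so. Of the 76, 49 had a difference below 0 (64.5%, against 52.6% of all genes). The median was -0.08, against a median of -0.01 over all genes. Since the lists were chosen with earlier results of these data known, these shares are a description and no test.

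Among 17 other aldehyde dehydrogenase genes, 0 passed, 13 had differences below 0, where 52.6% of all genes did, and the median was -0.25. Aldh1a2, the third enzyme that makes retinoic acid, had signals of 226.6, 186, 201 and 265 on TGFB 1 to 4 and 486, 364, 386 and 330.4 on wildtype 1 to 4. All TGFB arrays lay below all wildtype arrays, with a difference of -0.79 (SE 0.17, limma adjusted p = 0.822). Aldh3b1 had a difference of -0.60 (SE 0.16) and Aldh8a1 one of -0.64 (SE 0.26), and neither exceeded a signal of 43.3 on any array.

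Of 20 measured genes of retinoid metabolism, 0 passed, 12 had differences below 0, where 52.6% of all genes did, and the median was -0.11. At an unadjusted p under 0.05, 5 of the 20 were lower, where 4.54% of all genes were. Adh7, an alcohol dehydrogenase that oxidises retinol, had signals of 19.4 to 36.1 on TGFB and 45.3 to 118 on wildtype arrays, without overlap (difference -1.11, SE 0.24, limma adjusted p = 0.822). Dhrs3, which reduces retinaldehyde back to retinol, had 150.5 to 193 against 209.6 to 279, also without overlap (difference -0.48, SE 0.15, limma adjusted p = 0.834). The part of pigmented tissue and retina, which have retinoid enzymes of their own, was not tested.

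The measured genes of the pentose phosphate pathway around Tkt showed no such separation. Of 9 measured genes among 10 in the list, 0 passed and 0 had an unadjusted p under 0.05 in limma. Of the 9, 6 had differences below 0, where 52.6% of all genes did, and the median was -0.09. Tktl1 and Tktl2, counted among the 9, stayed under a signal of 16 on all arrays. Taldo1, transaldolase, the enzyme that shares the sugar rearrangements with transketolase, had signals of 2235, 2019, 1991 and 1258 on wildtype 1 to 4 and 1208, 1431, 1551 and 1424 on TGFB 1 to 4. Its groups overlapped through wildtype 4, and the difference was -0.39 (SE 0.19, limma adjusted p = 0.871). H6pd, of the endoplasmic reticulum branch, had a difference of -0.37 (SE 0.21) and Rpe, an epimerase, one of -0.30 (SE 0.18).

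**Figure D4:**
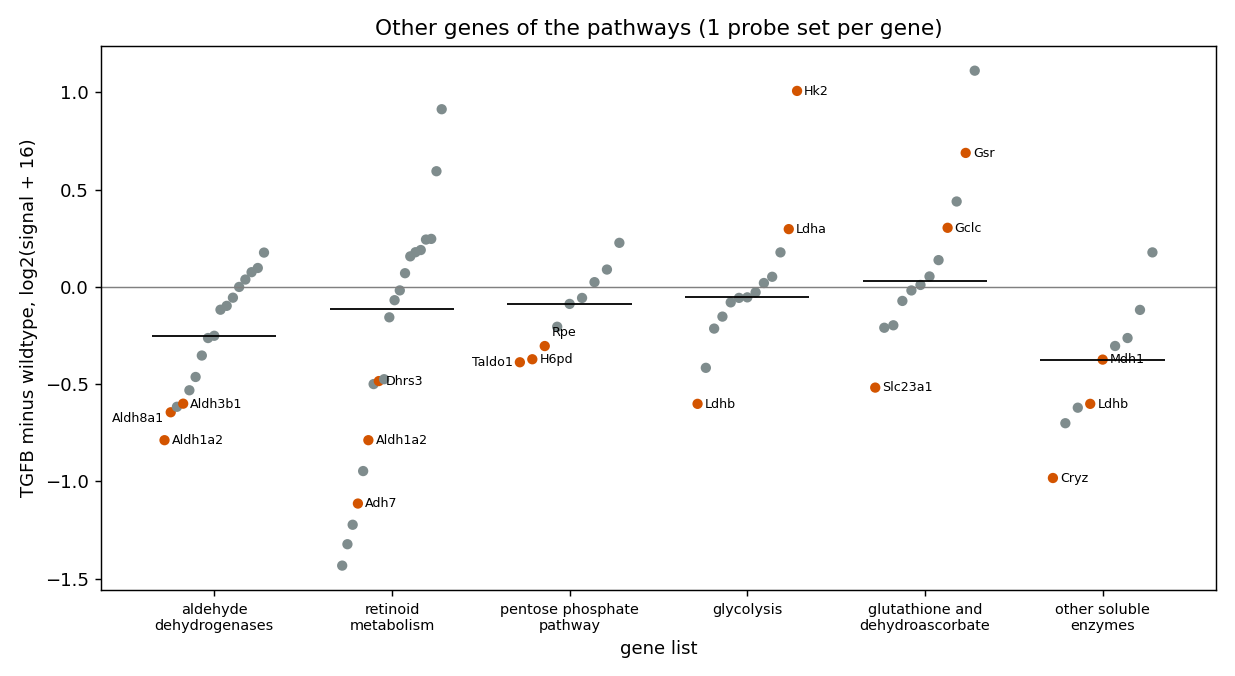
Difference between the groups (TGFB minus wildtype, log2(signal + 16)) for each measured gene of 6 pathway lists, with list medians as bars and the 3 genes of smallest p in each list named in orange. Retinoid genes spread widest, and the median of the list of other soluble enzymes is the lowest, at -0.37.

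Glycolysis genes had a median difference of -0.05, with 0 of 13 measured genes past the threshold. Hk2, an inducible hexokinase, had signals of 614, 599, 344 and 311 on TGFB 1 to 4 and 267, 264, 224 and 131 on wildtype 1 to 4, without overlap (difference 1.01, SE 0.29, limma adjusted p = 0.834). It was highest on TGFB 1 and TGFB 2, the TGFB arrays with high cornified transcripts. On wildtype 2, also high in them, its signal was 264. The part of skin tissue in the Hk2 result was not tested. The lactate dehydrogenase subunit Ldhb had 671 to 1256 on TGFB and 1312 to 1879 on wildtype arrays (difference -0.60, SE 0.21), while the other subunit Ldha had a difference of 0.30 (SE 0.19).

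Genes of glutathione and dehydroascorbate reduction, the neighbours of Gsto1 in function, had a median of 0.03, with 0 of 12 measured genes past the threshold. Gsr, which regenerates reduced glutathione, had signals of 67.8 to 98.5 on TGFB and 24.4 to 56.8 on wildtype arrays, without overlap (difference 0.69, SE 0.20, limma adjusted p = 0.834). Gclc, of glutathione synthesis, had 262 to 328 against 215 to 244, again without overlap (difference 0.30, SE 0.13). The ascorbate transporter Slc23a1 was dim, at no more than 29.7, with a difference of -0.52 (SE 0.19). Gsto2, the other omega-class gene, stayed under a signal of 16 on all arrays.

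Other soluble enzymes that are abundant in corneas or lenses of some species had a median of -0.37, with 0 of 9 measured genes past the threshold and 8 below 0, where 52.6% of all genes were. Cryz, zeta-crystallin of the guinea pig lens, had signals of 385, 344, 849.6 and 914 on TGFB 1 to 4 and 1247, 665, 1185 and 1698 on wildtype 1 to 4. TGFB 1 and TGFB 2 were lowest and wildtype 2 lay below TGFB 3 and TGFB 4, with a difference of -0.98 (SE 0.38, limma adjusted p = 0.837). Mdh1, a malate dehydrogenase, had a difference of -0.37 (SE 0.19).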

How the data were processed

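Values are the deposited intensities of 8 one-colour arrays, linear and above 0. The tool that made them is not given in the sources used here. Every array had a 2% trimmed mean of 150, as scaling to a common target gives, and no further normalization was applied. No pair of arrays was identical. The number of arrays limits the precision. Values were taken as log2(signal + 16), which understates changes of dim genes, and 64 control probe sets were left out. A platform annotation of 2016 gave 1 symbol to 34945 probe sets, several to 932 and none here to 9160, and 34741 were matched by Entrez ID to RefSeq symbols (GRCm38.p6). All 45037 probe sets were fitted with limma 3.58.1 in R 4.3.3 (lmFit, eBayes, 9.22 total degrees of freedom), without a filter on low values, and a step tested on simulated data. Of the 10 members, 9 had a mean above the 40th percentile of all probe sets, and the other was Aldh1a3 1417642_at. Lists were read at the brightest probe set of each gene. The members and lists were chosen with earlier results of these data known. Named genes were all member probe sets, the 3 of smallest p in each pathway list, the 3 most similar to each member, and fixed tissue markers, of which 1 is not reported here. Arrays are numbered in record order within a group, and numbers pair no arrays. Figures were drawn with matplotlib 3.10.9.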

Additional observations from a re-analysis of the deposited data

Results flagged for a closer look

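Of 20 groups of 4 values tested for a value far from the others (10 probe sets in both groups), 1 stood out, and chance alone gives about 1 in 20. The Gsto1 probe set 1416531_at had a signal of 1772 on wildtype 1, against 1068 to 1138 on the other wildtype arrays, while the Gsto1 probe set 1456036_x_at had 1917 there against 1335 to 1640.3.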

How the results depend on the processing

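Results were recomputed with an offset of 1 or of 32, after quantile normalization or centring on array medians, with probe sets under the 40th percentile removed, with 1 probe set per gene, with a variance trend, robust moderation or array weights, and without each array in turn. Leaving out the 3 arrays of high Krt10, or wildtype 1 and wildtype 4 together, was added after the data were seen. No member probe set and no pathway list gene passed limma under any of these. Over all probe sets the count past the threshold was 0 except for 2 without wildtype 4, both of Ces1d, and 2 without wildtype 1 and wildtype 4 (Ces1d and Rgr), so single arrays left out gave 0 to 2. Ces1d and Rgr are named with their values known. Of the 10 member probe sets, 9 kept the sign of their difference under every alternative run on them. The exception, Tkt 1436605_at, had -0.15 as reported, 0.11 with array weights, 0.35 without the 3 arrays of high Krt10, 0.13 without wildtype 1 and wildtype 4, and -0.39 to 0.17 over single arrays left out. The cause was not tested. The brightest Tkt probe set ran from -1.15 to -0.75 over all alternatives and Aldh3a1 from -2.76 to -0.91. No paired analysis was possible because the labels number the arrays across both groups and pair none. The dim Aldh1a3 probe sets lay near or under the offset on most arrays, which limits what their differences show.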
